A study of Homo sapiens with 6 samples.

Results

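Potassium channel genes were examined in RNA-seq libraries of SH-SY5Y cells, an established human neuroblastoma line with neuron-like features, after knockdown of PSF (SFPQ), a nuclear RNA-binding protein. The members were all protein-coding rows whose symbol is KCN, 1 or more letters and a number, which gave 61 genes of the 21301 in the table. Cells were treated for 72 h with siControl or with siPSF at 10 nM, and 3 libraries were made in each group. The paper names 1 siPSF sequence for these libraries, so effects particular to that siRNA cannot be told apart from loss of PSF. The siRNAs acted in 1 cell line, and the libraries measure RNA, not channel protein or current. A transcript level here is relative to all counted RNA of the culture, so a smaller share of expressing cells and less of the transcript per cell cannot be told apart.

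Potassium channels let potassium leave the cell along its gradient and so set the resting potential and end the action potential. Voltage-gated (Kv) subunits open on depolarization, and among them the KCNQ (Kv7) subunits carry the slow M-current that restrains repetitive firing of neurons. Inward rectifiers (KCNJ) hold the membrane near rest, some of them under the control of G proteins or of ATP. Pore subunits of the KCNK family give leak currents, KCNM, KCNN and KCNT channels respond to calcium or sodium, and accessory subunits alter gating and traffic.

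Depth was 119019293 to 132420931 counts in the siControl libraries and 101540520 to 120627283 counts in the siPSF libraries. Levels are given as CPM (counts scaled to a common library size) with TMM factors, and differences as log2 fold changes of siPSF against siControl with their standard error (SE). Genes were called at a Benjamini-Hochberg adjusted p under 0.05 in edgeR's quasi-likelihood test over 19694 genes. SFPQ lay at 372, 356 and 401 CPM in siControl replicates 1, 2 and 3, and at 209, 193 and 165 CPM in siPSF replicates 1, 2 and 3. Every siPSF library was below every siControl library, and 50.2% of the level was left (log2 fold change -0.99, SE 0.10, edgeR adjusted p = 9.5e-05). All 10 adrenergic neuroblastoma markers had a row, with summed levels of 5926 to 6652 CPM in siControl and 5397 to 6490 CPM in siPSF. Of these markers, 2 were called lower and 1 higher. The 4 oligodendrocyte markers had no row, 1 of 4 astrocyte and 1 of 4 immune markers had one, with sums that overlapped between the groups. The 2 of 4 epithelial markers with a row summed to 1.84 to 2.48 CPM in siControl and 2.78 to 4.44 CPM in siPSF, with 1 called higher. The 5 fibroblast and mesenchymal markers, some of which neuroblastoma cells also express, summed to 54.8 to 66.6 CPM in siControl and 40.5 to 43.6 CPM in siPSF, with 1 called lower, and the part of these markers in the channel results was not tested.

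Of the 61 genes, 20 encode Kv1 to Kv12 pore-forming or electrically silent subunits, 5 KCNQ subunits, 10 inward rectifiers, 11 leak channel subunits and 9 calcium- or sodium-activated channel subunits. The remaining 6 encode cytosolic accessory subunits of Kv channels. In all, 58 passed the filter on low counts and were tested. KCNJ18, an inward rectifier almost identical to KCNJ12, did not pass, with counts of 4, 3 and 8 in siControl and 6, 10 and 5 in siPSF. KCNAB1, a beta subunit of Kv1 channels, had counts of 9, 7 and 6 against 7, 4 and 2. KCNIP4, a calcium-binding partner of Kv4 channels, had 2, 1 and 1 against 1, 7 and 4. These 3 genes lie at too few counts for a comparison. A further set of channel genes with such symbols in RefSeq, KCNE genes among them, has no row in the table and was not analysed here.

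The upstream sequence of 4 called genes is shown because 3 of them fell and 1 rose, and promoters are where transcription of each begins. The 150 bases before the RefSeq start (GRCh38.p14) are printed 5′ to 3′ on the strand of the gene, with capitals marking the GC box GGGCGG in either orientation (CCGCCC on the printed strand). KCNQ5, KCNH8 and KCNJ3 were lower after siPSF and KCNJ8 was higher.
KCNQ5 (chr6:72621914-72622063, plus strand): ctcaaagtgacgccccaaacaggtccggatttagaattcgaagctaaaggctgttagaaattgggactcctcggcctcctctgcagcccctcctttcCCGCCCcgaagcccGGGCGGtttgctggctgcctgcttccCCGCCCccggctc
KCNH8 (chr3:19148360-19148509, plus strand): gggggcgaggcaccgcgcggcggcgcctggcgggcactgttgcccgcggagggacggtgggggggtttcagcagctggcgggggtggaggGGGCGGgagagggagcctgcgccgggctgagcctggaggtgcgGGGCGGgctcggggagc
KCNJ3 (chr2:154698545-154698694, plus strand): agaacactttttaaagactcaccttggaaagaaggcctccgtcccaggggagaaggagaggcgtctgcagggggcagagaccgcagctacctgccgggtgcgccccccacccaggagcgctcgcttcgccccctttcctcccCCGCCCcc
KCNJ8 (chr12:21774707-21774856, minus strand): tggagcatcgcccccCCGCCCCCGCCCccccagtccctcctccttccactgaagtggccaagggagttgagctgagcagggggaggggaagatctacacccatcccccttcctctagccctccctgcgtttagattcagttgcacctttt
The motif occurred 3 times before KCNQ5, 2 times before KCNH8, 1 time before KCNJ3 and 2 times before KCNJ8. It was found in this stretch for 26 of the 42 potassium channel genes with a RefSeq promoter entry (61.9%), for 59.4% of the protein-coding genes tested and for 36.7% of all RefSeq promoters of the same length. GC content was 62.0% for KCNQ5, 80.7% for KCNH8, 66.0% for KCNJ3 and 62.7% for KCNJ8. In the longer window from 250 bases before to 50 bases after the start, the TATA box letters TATAAA on either strand were present in 3 of the 42 genes (7.14%), in 5.86% of the protein-coding genes tested and in 12.0% of all promoters. The channel promoters thus held both motifs at shares near those of other expressed protein-coding genes, and a match of letters is no evidence of binding.

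Levels of the members differed widely before any knockdown effect is considered. On the FPKM scale, which is per exon length and so allows genes to be compared, 29 of the 61 genes had a mean of 1 or more, 3 of 10 or more, and 11 were under 0.1. KCNH2 (hERG, Kv11.1), the channel of the rapid delayed rectifier current of the heart, stood first with 70.5 ± 5.82 FPKM in siControl and 62.2 ± 6.73 FPKM in siPSF (SD, n = 3 each). It alone gave 36.0, 37.3 and 38.0% of the summed FPKM of all members in the siControl libraries and 39.5, 36.6 and 34.0% in the siPSF libraries, ranges that overlapped. KCNJ8 had a mean of 10.3 FPKM over the 6 libraries and KCNH8 one of 8.23 FPKM. KCNN1, KCNAB3 and KCNK3 were the most abundant members of their subfamilies, at means of 7.56, 7.37 and 5.55 FPKM. Neighbours in this order, such as KCNH8 with KCNN1, cannot be separated where their libraries overlap, as the plot of FPKM values shows.

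**Figure D1:**
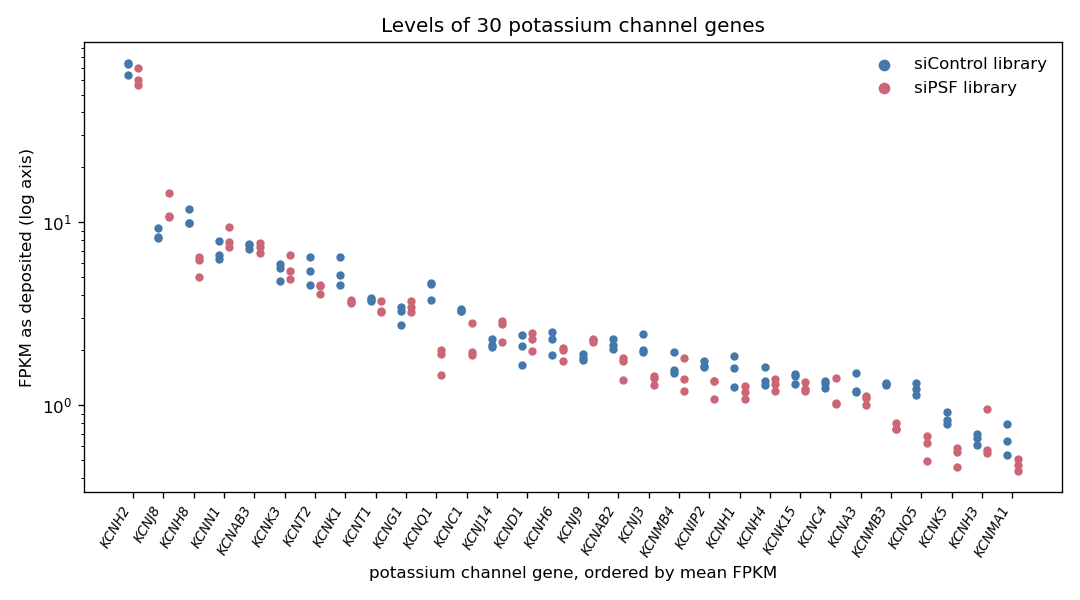
FPKM as deposited (log axis) of 30 potassium channel genes in the order of their mean, one point per library, with siControl libraries in blue and siPSF libraries in red. KCNH2 stands far above the rest at a mean of 66.4 FPKM, and the libraries of most neighbouring genes overlap.

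The summed FPKM of the 61 genes was 190 ± 11.7 in siControl and 169 ± 6.53 in siPSF (SD, n = 3 each), with every siPSF library below every siControl library. The nearest libraries were almost equal, at 177.4 (siControl replicate 1) and 176.6 (siPSF replicate 1). KCNH2, the largest part of the sum, had means of 70.5 and 62.2 FPKM but was not lower in CPM, at 253 and 258. The lower sum is thus a result on the FPKM scale, and no sum was made on CPM. The exact permutation test on the sums gave p = 0.1 (two-sided, n = 3 each), which is the smallest value that 3 against 3 libraries allow. The Kv1 to Kv12 genes made up 53.9 ± 1.19% of the sum in siControl and 51.6 ± 2.21% in siPSF. Inward rectifiers made up 8.39 ± 0.59% in siControl and 11.6 ± 1.32% in siPSF, without overlap between the groups (exact permutation p = 0.1, n = 3 each), while the total was lower in siPSF. Their summed FPKM was 15.9 in siControl and 19.7 in siPSF, and KCNJ8 alone was at 8.63 and 12.0 FPKM, so most of the difference of 3.76 FPKM lay in this gene.

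Across the 58 tested genes, 10 were called lower and 4 higher. The share called lower was 17.2%, where 8.27% of all genes tested and 8.58% of protein-coding genes were called lower. The share called higher was 6.90%, close to the 6.65% of all genes tested and 6.72% of protein-coding genes. The median log2 fold change was -0.09 for the channel genes and 0.01 for all genes tested, with 32 channel genes below and 26 above 0. Leaving out 1 library at a time gave 6 to 10 genes lower and 2 to 5 higher, with 6 lower without siControl replicate 3 or siPSF replicate 1 and 2 higher without siControl replicate 2. On the FPKM scale, with limma on log2(FPKM + 0.5) and a minimum mean of 0.5 FPKM, 34 members could be tested and the split was 9 lower and 1 higher.

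All 14 called genes had libraries that did not overlap between the groups, which rests on the same values as the calls and is no separate support for them. Of the 58 tested members, 15 had every siPSF library below every siControl library and 6 had every siPSF library above, where 17.8 and 16.7% of all genes tested showed these patterns. A change of over 2-fold among called genes was seen for KCNQ1, KCNQ3, KCNJ12 and KCNS2, so for 4 of 58, where 3.53% of all genes tested passed both limits. The size of most called changes was thus under 2-fold.

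**Figure D2:**
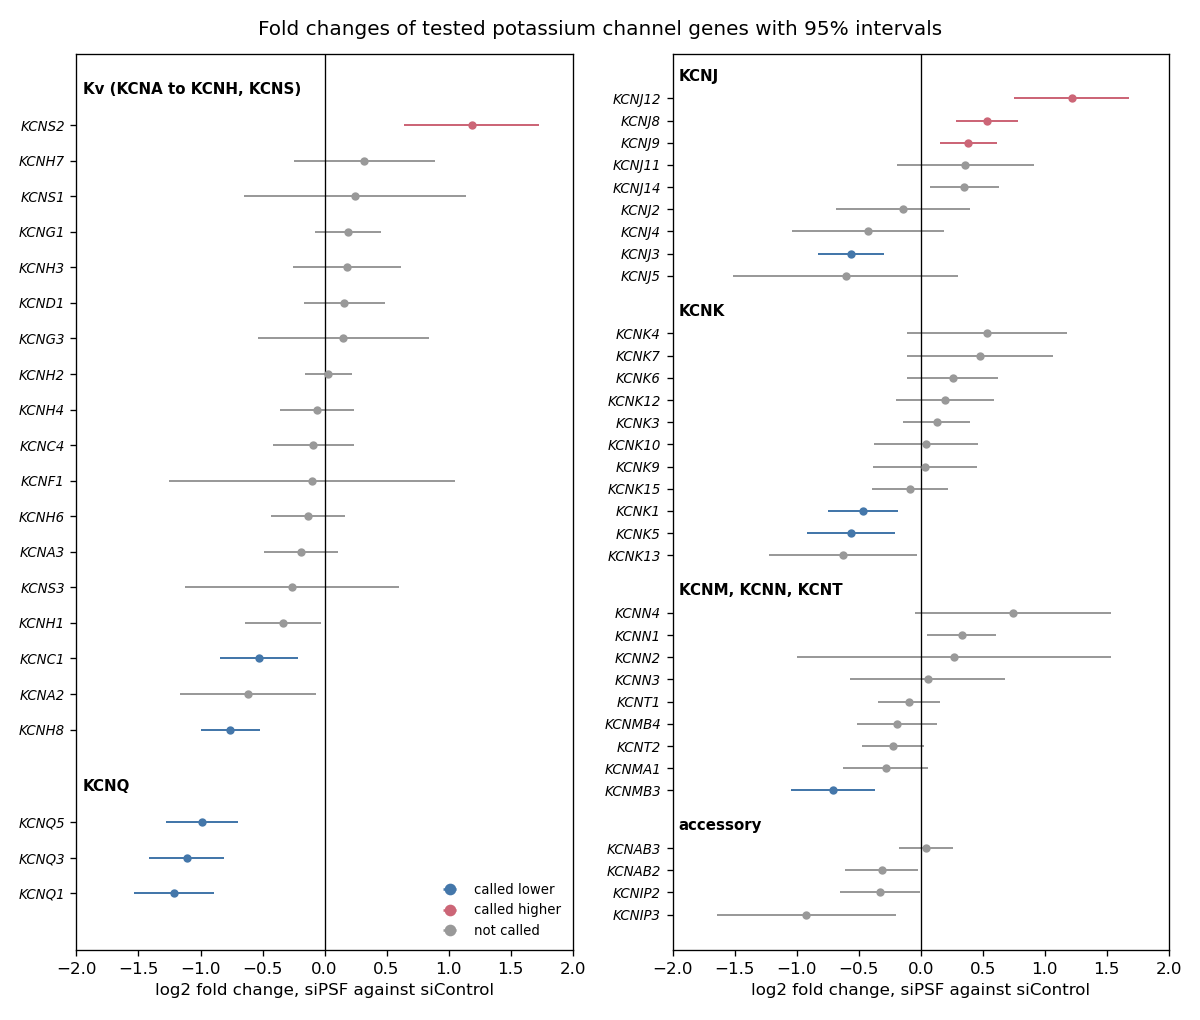
Log2 fold change of siPSF against siControl for 54 of the 58 tested potassium channel genes by subfamily, points with 95% intervals from the edgeR fit, blue called lower, red called higher and grey not called. The lowest values are those of KCNQ1 (-1.21), KCNQ3 (-1.11) and KCNQ5 (-0.99), and the highest those of KCNJ12 (1.22) and KCNS2 (1.19).

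The KCNQ genes held 3 of the 10 genes called lower, at a median log2 fold change of -0.99 over 5 genes. The other 2 were not called. The summed FPKM of the 5 genes overlapped between the groups (exact permutation p = 0.3, n = 3 each), so the falls below are those of single genes. KCNQ1 (chr11:2445008-2849105), the subunit of the slow delayed rectifier of the heart, lay at 16.4, 16.1 and 12.6 CPM in the siControl libraries and, in those of siPSF, at 6.73, 7.36 and 5.38 CPM. KCNQ3 (chr8:132120861-132481095), a subunit of the neuronal M-channel, lay at 7.39, 6.87 and 7.50 CPM against 3.06, 3.89 and 3.11 CPM. KCNQ5 (chr6:72622064-73198853), a further M-current subunit, lay at 8.63, 7.65 and 8.12 CPM against 4.31, 4.42 and 3.56 CPM. In each of these genes the highest siPSF library was well below the lowest siControl library. KCNQ1 fell to 43.1% of the siControl level (log2 fold change -1.21, SE 0.15, edgeR adjusted p = 0.00033). KCNQ3 fell to 46.2% (log2 fold change -1.11, SE 0.14, edgeR adjusted p = 0.00039) and KCNQ5 to 50.4% (log2 fold change -0.99, SE 0.13, edgeR adjusted p = 0.00059). All 3 kept the call whichever library was left out.

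The size of the KCNQ3 change depended on the scale, with a log2 ratio of group means of -1.58 on FPKM and -1.11 on CPM, and both point down. KCNQ1 gave -1.29 on FPKM and -1.21 on CPM, and KCNQ5 gave -1.03 and -0.99, so these were close on both scales.

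KCNQ1 overlaps the long non-coding RNA gene KCNQ1OT1, which is transcribed from the other strand and is known for its part in imprinting. KCNQ1OT1 had group means of 3.05 ± 0.74 CPM for siControl and 3.69 ± 0.31 CPM for siPSF (SD over 3 libraries) and was not called (log2 fold change 0.27, edgeR adjusted p = 0.35). The labels name a stranded kit and the paper an unstranded one, and whether the counting used strand is not given in the sources used here, so reads of the 2 genes may not be fully separated.

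**Figure D3:**
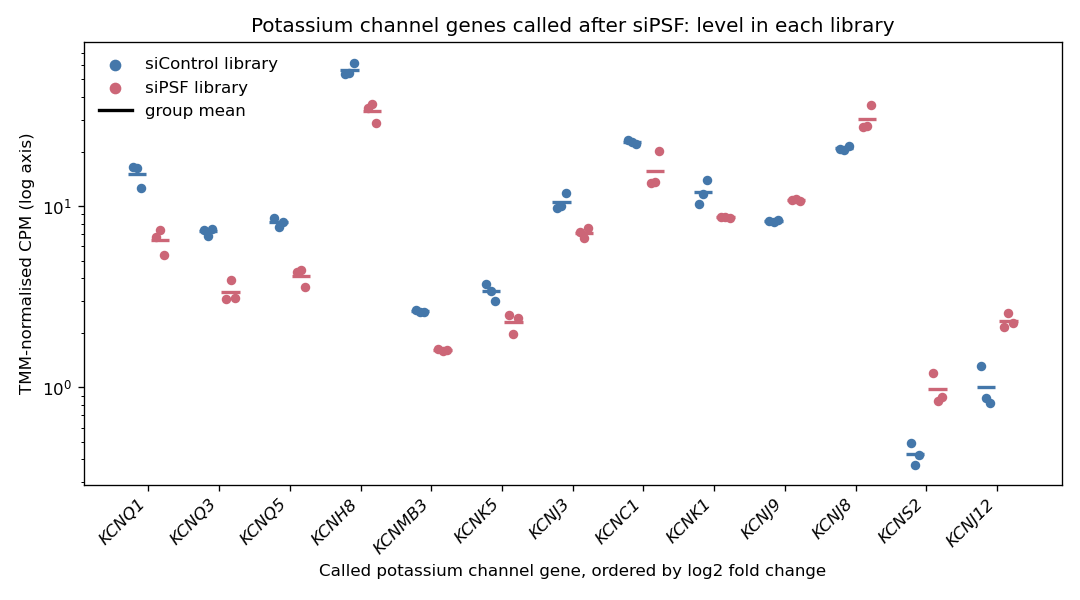
Level of 13 of the 14 called potassium channel genes in each library (TMM-normalised CPM, log axis), blue for siControl and red for siPSF, with the group mean as a bar, ordered by log2 fold change. The 3 points of each colour do not overlap for any of the 13 genes, and KCNC1 and KCNJ8 have 1 siPSF library apart from the other 2.

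Among the Kv1 to Kv12 genes, 3 of 20 were called lower and 1 higher, at a median log2 fold change of -0.07. KCNH8 (Kv12.1, chr3:19148510-19535642), an ELK-type channel active near rest, was the most abundant of all genes called lower on the FPKM scale. It lay at 53.4, 54.4 and 62.0 CPM in the siControl libraries and, in those of siPSF, at 34.8, 36.8 and 28.7 CPM. The groups were far apart, and KCNH8 fell to 59.1% (log2 fold change -0.76, SE 0.11, edgeR adjusted p = 0.00087), with the call kept in every fit that left out a library. Its relative KCNH2 lay at 231, 271 and 256 CPM against 259, 267 and 249 CPM, with libraries of both groups interleaved. The log2 fold change of KCNH2 was 0.03 (edgeR adjusted p = 0.85), with a 95% interval from -0.16 to 0.22, and -0.18 in the fit on FPKM, where it was not called either. The other ELK and ERG relatives, KCNH3, KCNH4, KCNH6 and KCNH7, had values between -0.13 and 0.32 and were not called, nor was the EAG-type KCNH1 at -0.34.

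KCNC1 (Kv3.1, chr11:17734781-17783057), a channel of fast-spiking neurons, lay at 23.2, 22.7 and 22.1 CPM (siControl) against 13.3, 13.6 and 20.2 CPM (siPSF). The third siPSF library stood close to the siControl libraries, and the log2 fold change was -0.53 (SE 0.15, edgeR adjusted p = 0.030). KCNC1 kept the call only when siPSF replicate 3 was left out and lost it without any of the others, with an adjusted p of up to 0.11.

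KCNS2 (Kv9.2, chr8:98426958-98432853) encodes an electrically silent subunit that forms channels only together with pore-forming Kv subunits. It lay at 0.49, 0.37 and 0.42 CPM in the siControl libraries and, in those of siPSF, at 1.2, 0.84 and 0.88 CPM, from 50 to 60 counts against 87 to 143 counts. Every siPSF library was higher (log2 fold change 1.19, SE 0.25, edgeR adjusted p = 0.0081), and the call held whichever library was left out. At this low level the gene fell under the stricter filter of a mean of 1 CPM and was not tested there. KCNS2 overlaps STK3, a kinase gene at group means of 3.93 and 4.74 CPM that was not called (log2 fold change 0.27, edgeR adjusted p = 0.19). The other 5 silent subunit genes, KCNF1, KCNG1, KCNG3, KCNS1 and KCNS3, were not called, with log2 fold changes from -0.26 to 0.25.

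Other Kv genes were not called. KCNA2 (Kv1.2), a subunit of axonal channels, had a log2 fold change of -0.62 with an unadjusted p of 0.030 in edgeR and an adjusted p of 0.12. KCNA3 (Kv1.3), KCNC4 (Kv3.4) and KCND1 (Kv4.1) had log2 fold changes of -0.19, -0.09 and 0.16.

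The inward rectifiers were the subfamily with the most genes called higher, 3 of 9 tested against 1 lower, at a median log2 fold change of 0.35. KCNJ8 (Kir6.1, chr12:21764955-21774706), a pore subunit of ATP-sensitive channels, lay at 20.7, 20.5 and 21.6 CPM in the siControl libraries and, in those of siPSF, at 27.1, 27.8 and 35.9 CPM. All siPSF libraries were higher, the third most of all (log2 fold change 0.53, SE 0.12, edgeR adjusted p = 0.0093). The call was lost only without siControl replicate 2, at an adjusted p of 0.054. KCNJ11 (Kir6.2), the other pore subunit of these channels, was not called at 0.36 (edgeR adjusted p = 0.38). ABCC8 and ABCC9, which encode the sulphonylurea receptors that complete them, had log2 fold changes of -0.04 and 0.58, and neither was called (edgeR adjusted p = 0.86 and 0.20).

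KCNJ12 (Kir2.2, chr17:21376357-21419870), a strong inward rectifier, lay at 1.31, 0.88 and 0.82 CPM in the siControl libraries and, in those of siPSF, at 2.16, 2.56 and 2.26 CPM. Every siPSF library was higher, at 2.32 times the siControl level (log2 fold change 1.22, SE 0.21, edgeR adjusted p = 0.0028), and the call held whichever library was left out. The value is uncertain in its source, since KCNJ18 is a near-identical copy whose reads the counting could have split or joined with those of KCNJ12. KCNJ2 and KCNJ4, the other strong rectifiers of the Kir2 group, had log2 fold changes of -0.14 and -0.43 and were not called. KCNJ14 (Kir2.4) had 0.35, with an adjusted p of 0.085 in edgeR, and was called only when siPSF replicate 3 was left out.

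The G protein-gated subunits moved in opposite directions. KCNJ3 (GIRK1, chr2:154698695-154858354), which needs a partner to form a channel at the membrane, lay at 9.75, 9.98 and 11.8 CPM in the siControl libraries and, in those of siPSF, at 7.19, 6.64 and 7.59 CPM. KCNJ9 (GIRK3, chr1:160081538-160090563), such a partner, lay at 8.25, 8.12 and 8.41 CPM against 10.8, 10.9 and 10.7 CPM. In both genes the groups were apart, KCNJ3 lower and KCNJ9 higher in siPSF. KCNJ3 fell to 67.8% (log2 fold change -0.56, SE 0.12, edgeR adjusted p = 0.010) and kept the call in every fit that left out a library. KCNJ9 rose by 0.39 on the log2 scale (SE 0.11, edgeR adjusted p = 0.029), but the call held only without siPSF replicate 3 and was lost without any of the others, at an adjusted p of up to 0.12. KCNJ5 (GIRK4), the cardiac and adrenal partner, lay under 0.6 CPM in all libraries and was not called (log2 fold change -0.60, edgeR adjusted p = 0.37).

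In the leak channel family, 2 of 11 genes were called lower and 0 higher in edgeR, with 3 genes at an unadjusted p under 0.05, and the median log2 fold change was 0.04. KCNK1 (TWIK-1, chr1:233614106-233672514) lay at 10.2, 11.6 and 14 CPM in the siControl libraries and, in those of siPSF, at 8.75, 8.66 and 8.57 CPM. KCNK5 (TASK-2, chr6:39188971-39229475), a pH-sensitive leak channel, lay at 3.74, 3.42 and 2.99 CPM against 2.49, 1.98 and 2.40 CPM. The siPSF libraries of both genes were below all siControl libraries, and the siControl libraries of KCNK1 were spread widely. KCNK1 fell by 0.46 on the log2 scale (SE 0.13, edgeR adjusted p = 0.030) and lost the call without siControl replicate 2 or 3 or siPSF replicate 1 or 2, at an adjusted p of up to 0.099. KCNK5 had -0.56 (SE 0.16, edgeR adjusted p = 0.038) and kept it only without siPSF replicate 3, with an adjusted p of up to 0.12 otherwise.

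KCNK3 (TASK-1), the acid-sensitive leak channel and the most abundant of the family, lay at 32.1, 40.0 and 36.5 CPM in the siControl libraries and, in those of siPSF, at 34.1, 38.0 and 46.8 CPM. The groups overlapped, and the log2 fold change was 0.13, with a 95% interval from -0.14 to 0.40. KCNK13 (THIK-1) had -0.63 with an unadjusted p of 0.040 in edgeR and an adjusted p of 0.15. The other 7 genes, KCNK4, KCNK6, KCNK7, KCNK9, KCNK10, KCNK12 and KCNK15, lay between -0.08 and 0.54 and were not called.

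Of the 9 calcium- and sodium-activated channel genes, KCNMB3 was called lower and 0 genes were called higher in edgeR, where 2 had an unadjusted p under 0.05. KCNMB3 (chr3:179239703-179267050) encodes the beta-3 subunit of the large-conductance BK channel. It lay at 2.67, 2.62 and 2.59 CPM in the siControl libraries and, in those of siPSF, at 1.63, 1.59 and 1.60 CPM. The libraries within each group were nearly alike and the groups were apart (log2 fold change -0.71, SE 0.16, edgeR adjusted p = 0.010), and the call held whichever library was left out. The gene overlaps PIK3CA on the other strand, which was not called at group means of 21.6 and 22.8 CPM (log2 fold change 0.07), and the same doubt on strand holds for this pair. A pseudogene copy, KCNMB3P1, lay at 0.15 and 0.08 CPM and was not called (log2 fold change -0.91, edgeR adjusted p = 0.14).

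KCNMA1, the pore of the BK channel, was not called at -0.28 (SE 0.16, edgeR adjusted p = 0.26), and KCNMB4, its neuronal beta subunit, was not called at -0.19 (SE 0.15, edgeR adjusted p = 0.43). KCNN1 (SK1), a small-conductance channel opened by calcium, lay at 21.1, 18.0 and 16.1 CPM against 21.5, 21.0 and 27.0 CPM. The lowest siPSF library lay below the highest siControl library, and the log2 fold change was 0.33 (SE 0.13, edgeR adjusted p = 0.11). KCNN2, KCNN3 and KCNN4 lay under 1 CPM in all libraries, with values of 0.27, 0.06 and 0.74, and the sodium-activated KCNT1 and KCNT2 had -0.09 and -0.23. None of these was called.

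Among the accessory genes, 0 of the 4 tested were called in edgeR, though 3 had an unadjusted p under 0.05 and all 3 had siPSF libraries below all siControl libraries. KCNAB2 (Kv-beta-2) lay at -0.32 on the log2 scale (edgeR adjusted p = 0.14), KCNIP2 (KChIP2) -0.33 (edgeR adjusted p = 0.16) and KCNIP3 (KChIP3, also known as DREAM) -0.92 (edgeR adjusted p = 0.082). KCNIP3 lay at 0.61, 0.43 and 0.45 CPM in the siControl libraries and, in those of siPSF, at 0.35, 0.26 and 0.16 CPM, so its interval was wide, from -1.65 to -0.20. KCNAB3 (Kv-beta-3), the most abundant of them, lay at 21.7, 22.2 and 20.01 CPM against 21.7, 23.7 and 20.4 CPM. These libraries overlapped throughout, and the log2 fold change was 0.04.

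Long genes held most of the channel genes called lower. Of the 17 tested members of 100 kb or more, 6 were called lower (35.3%) and 0 higher in edgeR, at a median log2 fold change of -0.32. KCNQ1, KCNQ3, KCNQ5, KCNH8 and KCNJ3 were among them. Among all protein-coding genes of this length, 25.1% were called lower and 2.67% higher. Of the 41 shorter members, 4 were called lower (9.76%) and 4 higher (9.76%), where 4.64% and 7.69% of the shorter protein-coding genes were called, and their median was -0.01. The 4 short genes called lower were KCNC1, KCNK1, KCNK5 and KCNMB3.

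The members of each length class can be set beside the other genes of that class. In the class of 400 kb or more, 53.8% of protein-coding genes were called lower, at a median log2 fold change of -0.58. Of the 6 tested channel genes in that class, KCNQ1 and KCNQ5 were called. KCNMA1 (768 kb) and KCNH1 (456 kb) had values of -0.28 and -0.34, inside the middle 50% of their class, with 95% intervals from -0.63 to 0.06 and from -0.65 to -0.03 that include the class median. KCNH7 (467 kb), near 1 CPM, had 0.32, and KCNN2 (441 kb) had 0.27 on 4 to 19 counts per library, with an interval from -1.0 to 1.53 too wide to place it. KCNQ1 and KCNQ3 lay below the middle 50% of protein-coding genes of their length, which spanned -1.0 to -0.21 in the class of KCNQ1 and -0.48 to -0.01 from 200 to 400 kb. So did KCNH8 (-0.76) in the latter class, and KCNJ3 (-0.56) in that of 100 to 200 kb, which spanned -0.31 to 0.06. The shorter KCNC1, KCNK1, KCNK5 and KCNMB3 also lay below theirs, which began at -0.11 (20 to 50 kb) and -0.18 (50 to 100 kb). KCNQ5 lay within the middle 50% of its class. At the other end, KCNJ8, KCNJ9 and KCNS2, all under 10 kb, lay above the middle 50% of the genes of 5 to 10 kb, which ended at 0.24. These places rest on the same fold changes as the calls, so they are no separate support for a change beyond gene length. Some members that were not called also lay outside the middle 50% of their class, such as KCNA2 (-0.62) below and KCNK4 (0.54) above.

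**Figure D4:**
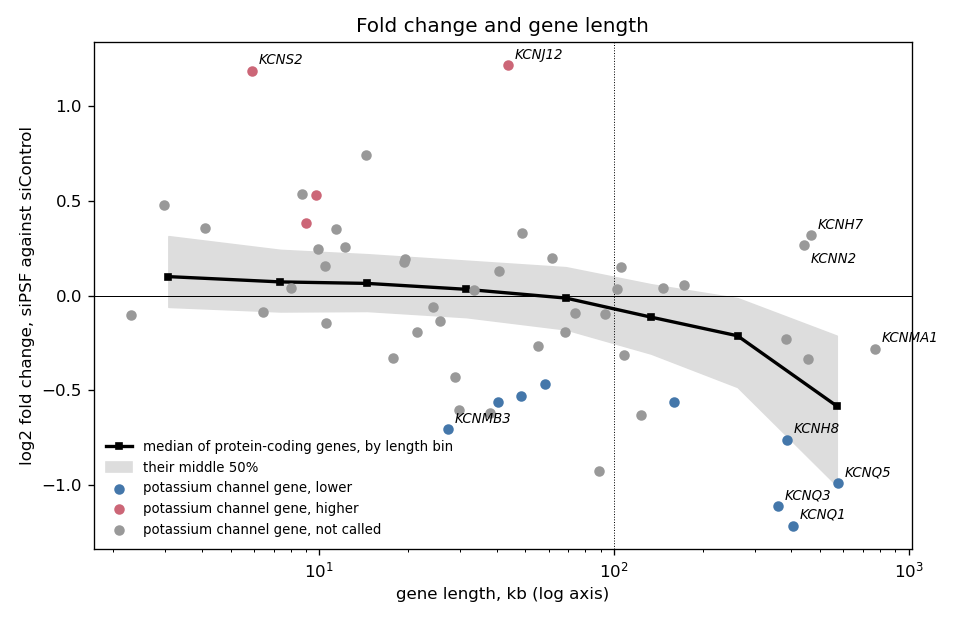
Log2 fold change of siPSF against siControl (vertical) and gene length in kb (horizontal, log axis) for 54 of the 58 tested potassium channel genes, over the median (line) and middle 50% (grey) of protein-coding genes in 8 length classes, with a dotted line at 100 kb. The line falls from 0.10 in the shortest to -0.58 in the longest class. KCNQ1 and KCNQ3 lie below the grey band, as do other genes called lower, while KCNJ12 and KCNS2 lie above it.

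Of 27 genes for proteins that bind or anchor potassium channels, 25 had a row and were tested. Among these, 4 were called lower (16%) and 2 higher (8%), at a median log2 fold change of -0.02. Of all genes tested, 8.27% were called lower and 6.65% higher. DPP6, an auxiliary subunit of Kv4 channels, lay at 16.4, 16.4 and 18.1 CPM in the siControl libraries and, in those of siPSF, at 7.08, 7.09 and 5.37 CPM. DPP10, its relative, lay at 10.9, 10.7 and 13.9 CPM against 5.92, 5.09 and 5.21 CPM. Both were lower in every siPSF library, with log2 fold changes of -1.38 (edgeR adjusted p = 6.2e-05) and -1.13 (edgeR adjusted p = 0.00033). CNTNAP2 (Caspr2), which clusters Kv1 channels beside the node of Ranvier, fell by 1.48 on the log2 scale (edgeR adjusted p = 2.9e-05) and ANK2, an ankyrin that anchors membrane proteins to the cytoskeleton, fell by 1.33 (edgeR adjusted p = 0.00012). Each of these 4 genes is longer than 600 kb. ADAM23, a membrane protein of the LGI1 complex, and SPTBN4, the spectrin of the axon initial segment where KCNQ channels gather, were called higher at 0.42 and 0.40 (edgeR adjusted p = 0.029 and 0.037). The ankyrin-G gene ANK3, which also anchors KCNQ channels, had -0.73 and an adjusted p of 0.052 in edgeR. DLG2 had -0.44 and an adjusted p of 0.22 in edgeR. ANK3 and DLG2 are also longer than 600 kb and were not called.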

How the data were processed

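RNA-seq of SH-SY5Y cells was analysed, with 3 siControl and 3 siPSF libraries grouped by their titles. The authors deposited 1 table with raw counts and FPKM values per RefSeq gene and library. Per the labels, libraries were made with a stranded TruSeq mRNA kit from ISOGEN-extracted RNA, whereas the paper names a TruSeq RNA kit that does not mark strand, so reads of genes on opposite strands may not be separated. The paper's methods name Bowtie 2 for rRNA removal and TopHat for mapping to hg38, whereas the submitters' processing notes name Trimmomatic, HISAT2 2.1.0, StringTie 2.1.3b and GRCh38, and the deposited FPKM values do not follow the counts for every gene. Whether strand was used in counting is not given in the sources used here. No value in the table is below 1 count, and genes without reads in a library may have no row.

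Counts were filtered with filterByExpr, scaled by TMM (factors 0.964 to 1.053) and tested with edgeR 4.0.16 (quasi-likelihood test) in R 4.3.3 over all 19694 genes, with Benjamini-Hochberg adjustment and no replicate block. The fit was tested on simulated data for this comparison (19542 genes), in which 74 of 98 genes changed by 2-fold and 49 of 99 changed by 1.5-fold were called. Of the 19345 unchanged genes, 7 were called. The changed genes were a far smaller share there than the called genes are in the data, so these rates do not carry over to the data. Replicates differed by more than sampling noise (chi-square per degree of freedom of 22.6 or more). The paper describes the libraries as biological triplicates, but the labels name no separate cultures. The edgeR p-values set the group difference against the spread between these libraries, estimated with information shared across genes. Single values were tested by two-sided exact permutation. Positions and promoters came from the RefSeq tables of GRCh38.p14. DESeq2 1.42.0 and limma 3.58.1 on log2 FPKM served as alternatives. Genes are named when called, when highest in FPKM in their subfamily, when partners were called or when the filter left them out. Some members, called genes included, are not reported here by name and do not appear in the plots, but stay in all counts, sums and medians. Other members were named to describe the family, and the genes that overlap or copy a called member, ABCC8, ABCC9, ANK3 and DLG2 were chosen after their values were seen. The members and lists were chosen with earlier results of these data known.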

Additional observations from a re-analysis of the deposited data

How the results depend on the processing

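SFPQ and 8 of the 14 called channel genes (KCNQ1, KCNQ3, KCNQ5, KCNH8, KCNJ3, KCNMB3, KCNJ12 and KCNS2) kept their call in all 6 fits that left out 1 library. The count of genes called lower ranged from 6 to 10, that of genes called higher from 2 to 5, and the median log2 fold change from -0.13 to -0.05. The lower count was 6 without siControl replicate 3 or siPSF replicate 1, and the higher count was 2 without siControl replicate 2, where KCNA2 was called in addition. All genes tested also gave fewer calls there (928 lower and 572 higher, against 1628 and 1310). With a replicate block, 9 genes were lower (KCNK5 lost) and 4 higher. The deviations of same-numbered libraries from their group means, in log CPM over all genes tested, correlated at -0.02, 0.06 and 0.06. The numbers were therefore not taken as pairs. DESeq2's size factors and DESeq2's Wald test each gave 10 and 4, no filter 9 and 4, and a filter at a mean of 1 CPM 10 and 3.

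At an adjusted p under 0.01, 4 genes were lower and 3 higher. In limma on log2(FPKM + 0.5) and on log2(FPKM + 0.1), 9 of 34 tested members were lower and 1 was higher. KCNQ3, KCNJ12 and KCNS2 were under the FPKM minimum, and KCNJ9 lost its call. The member median was -0.16 and -0.19 there, where that of all genes was -0.06 in both. The split over all genes was 1782 lower and 736 higher with the first. Members that were not called changed sign. In the limma fits KCNH2 went to -0.18 and -0.18 and KCNAB3 to -0.032 and -0.034. With 1 library left out, KCNH2 ranged from -0.031 (without siControl replicate 1) to 0.075, KCNAB3 from -0.015 (without siPSF replicate 2; -0.0037 without siControl replicate 3) to 0.092, and KCNK3 from -0.0066 (without siPSF replicate 3) to 0.23. The cause was not tested. Depth limits the genes under 1 CPM, whose intervals are wide.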
